A study of Homo sapiens with 3 samples.

Results

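The S100 alarmins are small calcium-binding proteins that myeloid cells and keratinocytes hold in the cytosol and release when stressed or damaged, and 10 of their genes were followed in THP-1 macrophages: S100A3, S100A4, S100A6, S100A7, S100A8, S100A9, S100A10, S100A11, S100A12, and S100P. They were taken by name from the array, where 12 probes carried these names. They made up 10 of the 39271 genes with a probe that the authors annotated with an Entrez gene ID, which are called all genes below. The THP-1 line comes from human monocytic leukemia, and PMA makes its cells macrophage-like. Each of 3 conditions was measured on 1 one-color array with Cy3-labeled RNA, and all 3 arrays were on 1 slide. The Ctrl macrophages received PMA at 100 ng/mL for 24 to 36 h and then a rest in fresh medium, and no other agent. The IMQ macrophages were treated in the same way and then activated with imiquimod (IMQ), a synthetic ligand of endosomal toll-like receptors that is used to bring on psoriasis-like inflammation. The IMQ+DMD macrophages received DMD, a benzenediol with methoxy and methyl groups from the mushroom Antrodia cinnamomea, before IMQ. The labels call the added compound X, which was taken to be DMD, since only DMD and IMQ are named in the series. A time of 4 h stands in every label, whereas the methods of the study give a longer IMQ exposure for its THP-1 experiments in general, and no dose of IMQ or DMD stands in the labels. One line in 1 culture per condition stood for macrophages, so no difference below could be checked in a replicate or given a p-value.

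S100 proteins bind calcium through EF-hand loops and act as dimers inside the cell, where they touch annexins, myosin, and other targets. Outside the cell S100A8 and S100A9, which pair as calprotectin, and S100A12 signal through the receptor RAGE or through toll-like receptor 4. S100A7, S100A8, S100A9, and S100A12 are abundant in psoriatic skin, where keratinocytes and infiltrating neutrophils and monocytes make them.

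The sequences read by the array are shown first for the myeloid members and for S100A11, because the results turn on them, as 5′ to 3′ stretches of the 60-base probes in the sense of the transcript. In the S100A8 probe (hg19 chr1:153362548-153362607, minus strand), the first 29 bases run to a stop codon in capitals. The S100A9 probe (chr1:153330874-153333143, plus strand) spans 2270 bases of genome, so it crosses an intron and reads spliced RNA. The second probe of S100A12 (chr1:153346346-153346405, minus strand) and the second probe of S100A11 (chr1:152005219-152005278, minus strand) hold, in capitals, the 12 codons of an EF-hand calcium loop, found by its pattern of aspartate first and glutamate last. The first 23 bases of the S100A4 probe (chr1:153516198-153516257, minus strand) end in a stop codon, also in capitals.
S100A8 probe: aaagccatgaagaaagccacaaagagTAG
S100A9 probe: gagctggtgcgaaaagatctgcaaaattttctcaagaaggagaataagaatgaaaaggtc
S100A12, second probe: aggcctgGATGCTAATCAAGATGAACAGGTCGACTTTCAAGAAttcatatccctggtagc
S100A11, second probe: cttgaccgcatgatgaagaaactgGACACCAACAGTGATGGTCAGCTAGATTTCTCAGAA
S100A4 probe: ataagcagcccaggaagaaaTGA

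All 36 values of the members (12 probes on 3 arrays) were rated well above background by the scanner software, none of them (0) carried an outlier mark, and 1 had a mark on its background region (S100A8 on the IMQ+DMD array). A value is given as the quantile-normalized intensity that the authors deposited, which orders the arrays for 1 gene but not the genes among themselves, since each probe binds with its own strength. A difference between arrays is a log2 difference of these intensities, followed by its technical SD, which was taken from the spread of probes spotted 10 times at the same brightness. This SD ran from 0.05 to 0.23 for the members, covers noise within an array only, and leaves out the spread between cultures. A difference within 2 technical SD is called within spot noise below. The cells carried macrophage markers: CD14, ITGAM, SPI1, CSF1R, CD163, and MRC1 were all well above background on each array, CD68 and LYZ were not analysed here, and the summed normalized intensity of these 6 was 288426 in Ctrl, 220443 in IMQ, and 198586 in IMQ+DMD. This sum, in which the CSF1R probe was the brightest, was carried by that probe (224896, 172912, and 153691). After IMQ, 5 of the 6 markers were below Ctrl, where 52.6% of all genes were. Their median log2 difference was -0.44, and CD163 at -1.22 was 2.33-fold lower. From IMQ to IMQ+DMD, CSF1R (-0.17) and CD14 (-0.51) were lower and MRC1 was higher by 0.64. ITGAM (0.03), SPI1 (0.06), and CD163 (0.09) were within spot noise in that step. The part of these markers in the results was not tested. Because RNA of whole cultures was measured, fewer cells with a transcript and less of it per cell cannot be told apart.

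After IMQ, 9 of the 10 members were lower than in Ctrl macrophages, and S100A11 was higher with the deposited normalization but lower without normalization and with spike-in scaling. No member reached a 2-fold difference in either direction (0 of 10), where 3.79% of all genes compared were at least 2-fold lower and 4.24% at least 2-fold higher. Below 0 were 52.6% of all genes. The median log2 difference of the members was -0.39, against -0.03 over the 28967 genes compared. By more than 2 technical SD, 7 members were lower and 1 was higher, where 24.0% of all genes were lower and 22.3% higher by that measure, which brighter genes pass more easily. S100A3, S100A8, S100A4, S100A10, and S100A9 had the largest differences, from -0.89 to -0.49.

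**Figure D1:**
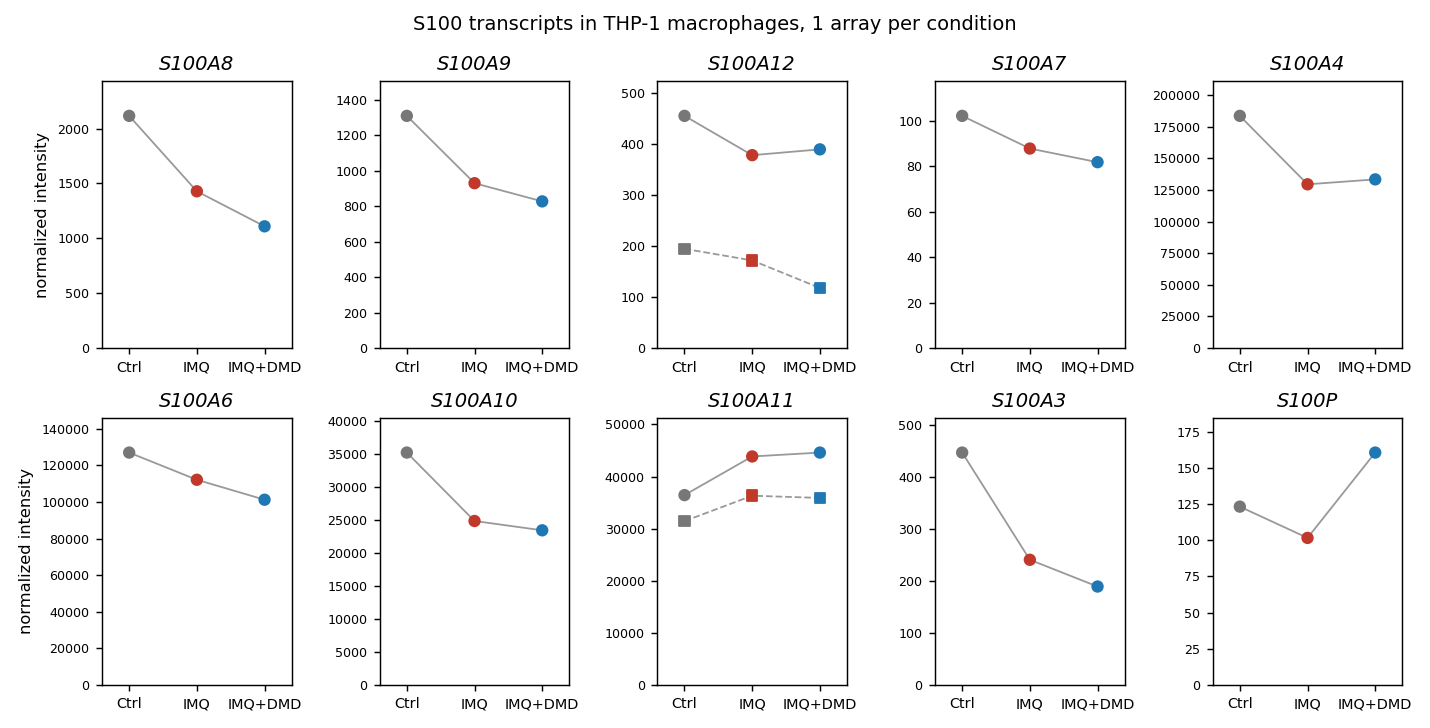
Normalized intensity of each S100 gene (vertical axis, linear, starting at 0 in each panel) on the Ctrl, IMQ, and IMQ+DMD arrays, with 1 point per array and no error bar because each condition had 1 array. Circles are the probe that stands for the gene and squares the second probe of S100A12 and S100A11; with these deposited values S100A11 alone was higher after IMQ (without normalization or with spike-in scaling it was lower), and S100P was highest in IMQ+DMD.

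S100A8, the smaller subunit of calprotectin, had a normalized intensity of 2116 in Ctrl, 1429 in IMQ, and 1110 in IMQ+DMD. Its log2 difference was -0.57 ± 0.07 for IMQ against Ctrl, which is 1.48-fold lower, and -0.36 ± 0.07 for IMQ+DMD against IMQ. The 3 arrays therefore stood in the order Ctrl, IMQ, IMQ+DMD, with both steps larger than spot noise, and IMQ+DMD was 1.91-fold lower than Ctrl. Without normalization and after spike-in scaling, IMQ against Ctrl was at -0.96 and -1.05, and IMQ+DMD against Ctrl at -1.41 and -1.35, and with 75th percentile scaling the latter was at -1.02. S100A9, its larger partner, had normalized intensities of 1308, 929, and 827 on the same arrays. Its log2 differences were -0.49 ± 0.07 between IMQ and Ctrl and -0.17 ± 0.07 between IMQ+DMD and IMQ. The order was that of S100A8, but the second step exceeded 2 technical SD only narrowly. Its difference after IMQ was -0.90 without normalization and -0.99 after spike-in scaling. Both calprotectin genes kept these directions under the 5 alternatives that rescale the arrays or correct the background, although with scaling to the spike-in controls the step from IMQ to IMQ+DMD was -0.30 for S100A8 and, within spot noise, -0.06 for S100A9.

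S100A12, another calgranulin and a ligand of RAGE, was read by 2 probes that parted after DMD with the deposited values. Its first probe (chr1:153346234-153346293) gave a normalized intensity of 454 in Ctrl, 377 in IMQ, and 389 in IMQ+DMD. The second probe, which holds the EF-hand loop printed above, gave 194, 172, and 118. Both were lower after IMQ than in Ctrl, by log2 differences of -0.27 ± 0.08 and -0.18 ± 0.14, of which the second was within spot noise. Between IMQ and IMQ+DMD the first probe differed by 0.04 ± 0.09 and the second by -0.54 ± 0.19. With the deposited values, the direction of S100A12 after DMD thus depended on the probe. The second probe was not read under the other scalings, and its intensity before normalization was 143 in IMQ and 114 in IMQ+DMD. After spike-in scaling the first probe was at 0.26, beyond spot noise, and its difference between IMQ and Ctrl was -0.73 without normalization and -0.82 after spike-in scaling. The second probe's spot was uneven to a like degree on the IMQ array (pixel CV 20.8%) and on the IMQ+DMD array (21.2%). On the Ctrl array it was more even (11.3%).

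S100A7, or psoriasin, an antimicrobial protein of keratinocytes, had a normalized intensity of 102 in Ctrl, 87.8 in IMQ, and 81.8 in IMQ+DMD. The log2 differences of -0.22 ± 0.23 and -0.10 ± 0.23 for the 2 steps were within spot noise, so the deposited values gave the 3 arrays no order for this gene, whereas IMQ against Ctrl was at -0.81 without normalization and at -0.90 after spike-in scaling, both beyond spot noise. Its close paralog S100A7A was at 33.3, 23.2, and 34.7 and was dim on at least 1 array, and whether the S100A7 probe also binds it was not tested. Of the keratinocyte markers, 4 of 7 were well above background on all arrays, TP63 was dim on all, the KRT10 probe was the brightest, and the summed normalized intensity of the list was 18932, 17944, and 18293 in Ctrl, IMQ, and IMQ+DMD. Nearly all of this sum was KRT10, while LOR, a gene of the cornified layer, was at 21.2, 84.8, and 38.0, 3.99-fold higher after IMQ and at a log2 difference of -1.16 from IMQ to IMQ+DMD. Of the 5 keratinocyte markers compared in that step, the other 4 were above 0 with the deposited values. KRT5 was higher by at least 2.16-fold against the floor of the IMQ array. KRT1 (0.52), KRT14 (0.24), and KRT10 (0.03) were within spot noise. After IMQ these 4 markers were all within spot noise. The part of these genes in the S100A7 values was not tested.

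S100A4, which binds nonmuscle myosin and is known from cell motility, had a normalized intensity of 183646 in Ctrl, 129527 in IMQ, and 133417 in IMQ+DMD. The difference of -0.50 ± 0.05 for IMQ against Ctrl was beyond spot noise, whereas that of 0.04 ± 0.05 for IMQ+DMD against IMQ was within spot noise. S100A10, a partner of annexin A2 whose own loops no longer bind calcium, was at 35224, 24847, and 23434. It showed the same pattern, with -0.50 ± 0.06 after IMQ and -0.08 ± 0.06 from IMQ to IMQ+DMD. With the deposited values both genes were thus 1.42-fold lower after IMQ, and the deposited values did not order IMQ and IMQ+DMD beyond spot noise. Without normalization and after spike-in scaling, the difference after IMQ was -0.75 and -0.84 for S100A4 and -0.81 and -0.90 for S100A10, and with 75th percentile scaling it was -0.30 and -0.37. For IMQ+DMD against IMQ, S100A10 was at -0.28 with 75th percentile scaling and at -0.22 without normalization, and S100A4 at -0.11 with 75th percentile scaling and at 0.11 after spike-in scaling, all beyond spot noise.

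S100A6, or calcyclin, had normalized intensities of 126998, 112126, and 101217 in Ctrl, IMQ, and IMQ+DMD. The log2 differences of -0.18 ± 0.05 and -0.15 ± 0.05 were small steps of like size, both beyond spot noise. With scaling to the 75th percentile of each array, the first step was close to 0 and the second was -0.30. The first step was -0.45 without normalization and -0.54 after spike-in scaling, which left the second at -0.09, within spot noise. S100A11, a partner of annexin A1, went the other way after IMQ on both of its probes with the deposited values. Its first probe (chr1:152005160-152005219) was at 36429, 43850, and 44596, and its second at 31429, 36313, and 35885. The log2 differences for IMQ against Ctrl were 0.27 ± 0.06 and 0.21 ± 0.06, but the first probe turned to -0.04 without normalization between arrays and to -0.13 with spike-in scaling. The second probe was not read under the other scalings. Its intensity before normalization was 37243 in Ctrl, 34647 in IMQ, and 31440 in IMQ+DMD, so it too was lower after IMQ without normalization. From IMQ to IMQ+DMD the deposited values of the probes differed by 0.02 and -0.02, within spot noise, but the first was at -0.13 with 75th percentile scaling, beyond it.

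S100A3, best known from the hair cuticle, had the largest difference after IMQ of the 10 members. Its normalized intensity was 448 in Ctrl, 241 in IMQ, and 189 in IMQ+DMD. The log2 difference was -0.89 ± 0.11 between IMQ and Ctrl and -0.35 ± 0.14 between IMQ+DMD and IMQ, so the arrays stood in the order Ctrl, IMQ, IMQ+DMD, with both steps beyond spot noise. The second step was -0.24 with 75th percentile scaling, -0.18 without normalization, and -0.03 after spike-in scaling, all within spot noise, so the order of IMQ and IMQ+DMD for S100A3 depends on the scaling. S100P, first found in placenta and also a ligand of RAGE, was at 123, 102, and 161. The difference of -0.28 ± 0.19 between IMQ and Ctrl was within spot noise, but it was -0.86 without normalization and -0.95 after spike-in scaling, both beyond it. In IMQ+DMD it was higher than in IMQ by 0.66 ± 0.19, which is 1.58-fold, and higher than in Ctrl by 0.38 ± 0.14, which was 0.04 without normalization and 0.10 after spike-in scaling. With the deposited values, S100P was the one member whose highest value came from the IMQ+DMD array beyond spot noise, and it was higher than in IMQ by 0.46 to 1.05 under the 5 alternatives that rescale the arrays or correct the background.

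**Figure D2:**
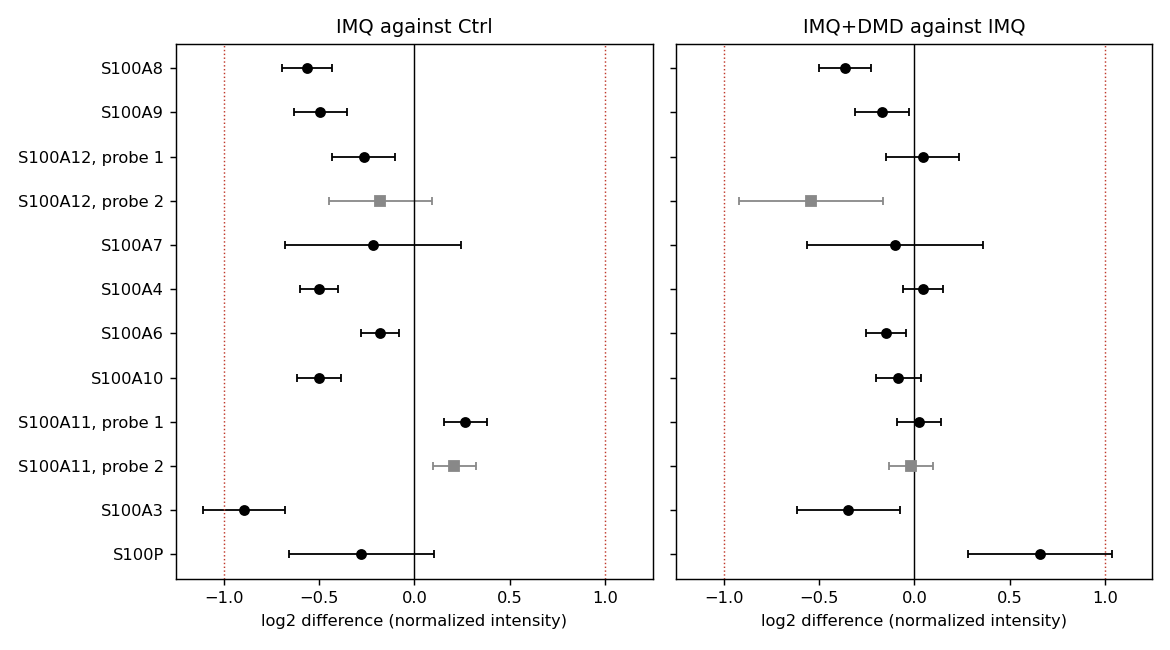
Log2 difference of normalized intensity for each S100 probe (horizontal axis), IMQ against Ctrl on the left and IMQ+DMD against IMQ on the right, with bars of ±2 technical SD from repeated spots. Black circles are the probes that stand for the genes, gray squares second probes, and dotted red lines 2-fold; no point passes 2-fold, 9 of 10 genes lie below 0 on the left, and S100P at 0.66 lies farthest from 0 on the right.

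From IMQ to IMQ+DMD, 6 of the 10 members were lower and 4 higher, none (0) of them by 2-fold, where 1.22% of the 28831 genes compared were at least 2-fold lower, 1.16% at least 2-fold higher, and 49.6% below 0. The members' median log2 difference was -0.09. With 75th percentile scaling 7 members were lower, and with spike-in scaling 5 were, where the median of all genes was -0.004 and 0.21. With the deposited values, 4 were lower by more than 2 technical SD (S100A8, S100A3, S100A9, and S100A6) and 1 higher (S100P), where 14.2% of all genes were lower and 15.1% higher. After spike-in scaling S100A8 (-0.30) stayed lower by that measure, whereas S100A3 (-0.03), S100A9 (-0.06), and S100A6 (-0.09) were within spot noise. S100P stayed higher, and S100A12 (0.26) and S100A4 (0.11) were then higher too. The IMQ array enters both this comparison and that of IMQ against Ctrl, so the differences of a gene in them are not independent of each other. Side by side, the differences after IMQ and from IMQ to IMQ+DMD were -0.57 and -0.36 for S100A8, -0.89 and -0.35 for S100A3, and -0.28 and 0.66 for S100P.

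Set against Ctrl, the IMQ+DMD macrophages had 8 members lower and 2 higher with the deposited values. The members' median was -0.39 against 0.05 over 30622 genes, of which 45.6% were below 0. If the arrays were not normalized, 9 members were lower and 1 higher, but the median of all genes was then -0.33. Spike-in scaling gave the same counts, at an all-gene median of -0.27. In both settings 8 members lay below the median of all genes. With the deposited normalization, S100A3 was the only member past 2-fold, at -1.24 ± 0.11 or 2.36-fold lower, among 5.04% of all genes that were at least 2-fold lower and 3.12% at least 2-fold higher. S100A8 came next at -0.93, followed by S100A9 at -0.66, S100A10 at -0.59, and S100A4 at -0.46. S100A9 passed 2-fold without normalization (-1.11) and after spike-in scaling (-1.05), and S100A10 passed it without normalization (-1.03). In these 2 settings 10.6% and 9.33% of all genes were at least 2-fold lower. By more than 2 technical SD, 7 members were lower and 2 higher (S100P, and S100A11, which turned below 0 without normalization and with spike-in scaling), where 21.9% of all genes were lower and 24.5% higher.

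The scale of the comparisons depended on how the arrays were brought level. On the IMQ array 66.6% of probes were well above background, against 72.0% in Ctrl and 71.9% in IMQ+DMD, and its median processed intensity was 61.8, against 94.5 and 76.4. Without normalization between arrays, the median log2 difference of all genes for IMQ against Ctrl was -0.52, and with scaling to the spike-in controls it was -0.61. The members' median was then -0.81 and -0.90. The members' median minus that of all genes was -0.30 and -0.29 under these scalings, against -0.36 with the deposited normalization. The members thus lay below the median of all genes in IMQ against Ctrl under each scaling, with 8 or 9 of 10 members below it. The split of genes at least 2-fold higher and lower was 1227 and 1099 with the deposited values, 547 and 4821 if the arrays were not normalized, and 479 and 6041 after scaling to the spike-in controls. Between IMQ+DMD and IMQ this split was 335 and 351 with the deposited values, 958 and 191 with 75th percentile scaling, 1241 and 159 if the arrays were not normalized, and 2093 and 109 after spike-in scaling. In that comparison the signs of S100A4, S100A7, and S100A11 turned under at least 1 scaling, while S100A8, S100A9, S100A3, S100A6, and S100A10 stayed lower and S100P higher.

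**Figure D3:**
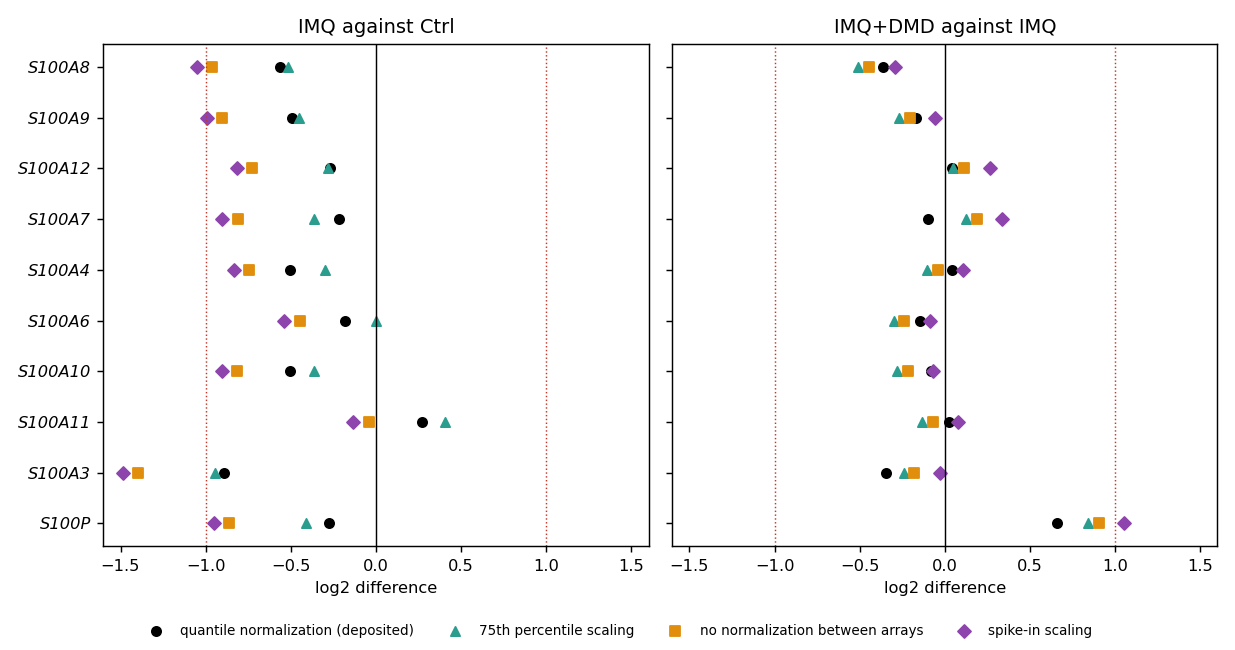
Log2 difference of each S100 gene (horizontal axis) for IMQ against Ctrl on the left and IMQ+DMD against IMQ on the right, with 1 symbol for each of 4 ways of bringing the arrays level and dotted red lines at 2-fold. On the left all genes shift to lower values without normalization and with spike-in scaling, S100A11 crosses 0, S100A3 passes 2-fold at -1.39 and -1.48, and S100A8 passes it at -1.05 with spike-in scaling, as S100P does on the right at 1.05.

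In the genome, 9 of the 10 members lie with 8 other S100 genes on chromosome 1, over 1648 kb from the S100A10 probe to the S100A1 probe, and S100P lies on chromosome 4. No test of position was made. After IMQ, S100A11 was at 0.27 next to S100A10 at -0.50, the compared genes from S100A9 to S100A6 were all below 0, and S100A5 was at 0.00, or at -0.41 without normalization and -0.50 after spike-in scaling. The neighbours S100A4, S100A3, S100A2, and S100A16 were lower by 0.50 to 1.42 (log2 differences of -0.50, -0.89, -1.42, and -1.17), and the next genes S100A14 and S100A13 were at 0.23 and 0.05, which turned to -0.43 and -0.31 without normalization.

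**Figure D4:**
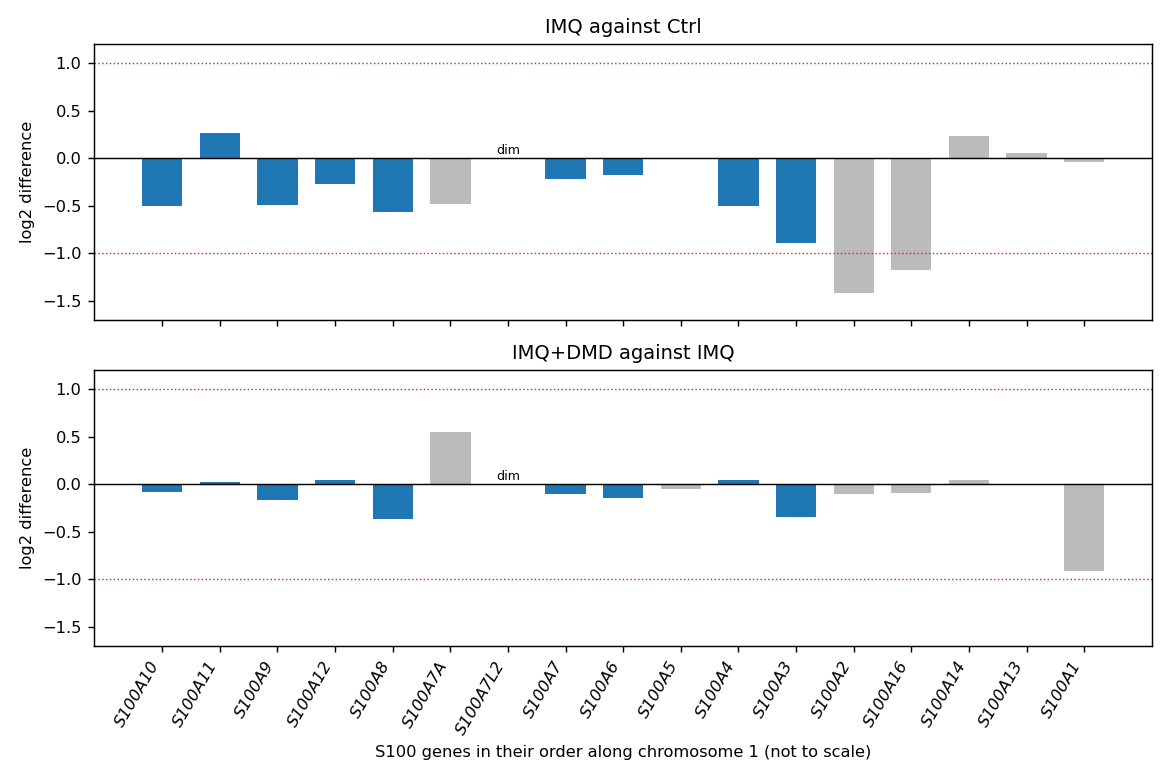
Log2 difference (vertical axis) of the 17 S100 genes of chromosome 1 in their order along it, IMQ against Ctrl above and IMQ+DMD against IMQ below, with followed members in blue, other family genes in gray, and dotted red lines at 2-fold. S100A2 at -1.42 and S100A16 at -1.17 pass 2-fold after IMQ, and S100A7L2 was dim on all arrays and has no bar.

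Among the 11 other family genes, 8 could be compared, and S100A7L2, S100G, and S100Z were dim on all arrays. After IMQ, 3 were at least 2-fold lower and 0 higher, where 3.79% and 4.24% of all genes were, and the 3 kept their direction under each scaling. Without normalization and after spike-in scaling 4 were at least 2-fold lower, where 16.1% and 20.2% of all genes were. With normexp 2 were, where 2.02% of all genes were. S100B, a glial member and RAGE ligand, was at a normalized intensity of 145 in Ctrl, 44.9 in IMQ, and 37.5 in IMQ+DMD, a log2 difference of -1.69 after IMQ, which was -0.91 with normexp background correction. S100A2, a gene of basal epithelium, was at 1154, 432, and 403, and S100A16 at 5384, 2390, and 2234. All 3 thus had a more negative difference after IMQ than any followed member, and none of the 8 reached 2-fold between IMQ+DMD and IMQ, where 1.16% of all genes were higher and 1.22% lower by that much. After spike-in scaling S100A7A did, at 1.11, a bound against the floor of the IMQ array, and 7.01% of all genes were then higher.

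The stretches before the start sites of the members were read from RefSeq windows of build GRCh38.p14, of which all 10 members had at least 1 and S100A8 had 3. Over the 250 bases before each start, the letters TATAAA, on either strand, occurred in 6 of the 10 member genes and in 10.7% of all 35116 windows. By window it was 7 of 12, since a pair of overlapping S100A8 windows holds the same match. The C/EBP letters TTGCNNAA occurred in 2 member genes (all windows 9.05%), the AP-1 letters TGANTCA in 2 (6.57%), the PU.1 letters GAGGAA in 2 (23.6%), and the NF-kB letters GGANTTNCC in 0 (all windows 3.67%). The windows of the calgranulins, which were lower after IMQ, and of S100P, which was higher in IMQ+DMD than in IMQ, are printed with TATAAA, C/EBP, and AP-1 matches in capitals. For S100A8 the window shown is the one with TATAAA 29 bases before the start, the distance also found for S100A9, and in S100P it lies 28 bases before. S100A12 holds TTGAGCAA, the C/EBP letters on the other strand, 94 bases before its start, TGAATCA 57 bases before, and TATAAA 8 bases before. A match to letters is a description of the sequence and not a bound site.
S100A8, chr1:153391074-153391323, minus strand: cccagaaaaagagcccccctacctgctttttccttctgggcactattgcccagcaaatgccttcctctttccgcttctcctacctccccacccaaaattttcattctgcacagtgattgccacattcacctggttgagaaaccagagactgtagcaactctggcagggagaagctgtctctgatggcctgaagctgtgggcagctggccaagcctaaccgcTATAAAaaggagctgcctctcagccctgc
S100A9, chr1:153357604-153357853, plus strand: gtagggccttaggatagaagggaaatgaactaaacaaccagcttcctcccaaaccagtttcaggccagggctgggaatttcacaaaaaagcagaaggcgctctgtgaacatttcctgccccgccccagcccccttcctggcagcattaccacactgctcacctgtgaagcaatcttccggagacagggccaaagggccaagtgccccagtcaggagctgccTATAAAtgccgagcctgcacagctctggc
S100A12, chr1:153375622-153375871, minus strand: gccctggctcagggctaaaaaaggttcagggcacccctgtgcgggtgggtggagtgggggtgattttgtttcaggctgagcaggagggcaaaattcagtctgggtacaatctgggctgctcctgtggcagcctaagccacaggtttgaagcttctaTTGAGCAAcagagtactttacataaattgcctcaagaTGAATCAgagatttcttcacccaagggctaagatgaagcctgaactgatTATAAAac
S100P, chr4:6693628-6693877, plus strand: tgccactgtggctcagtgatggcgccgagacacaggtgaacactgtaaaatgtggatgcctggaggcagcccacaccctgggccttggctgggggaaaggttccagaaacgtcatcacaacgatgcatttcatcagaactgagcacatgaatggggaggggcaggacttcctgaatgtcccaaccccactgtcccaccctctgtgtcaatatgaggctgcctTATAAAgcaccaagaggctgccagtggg

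Of 16 regulators tied to S100 genes in myeloid cells, 15 were compared (NFE2L2 was dim), and 6 were at least 2-fold higher and 1 at least 2-fold lower after IMQ, where 4.24% and 3.79% of all genes were. CEBPB, a transcription factor of inflammatory myeloid genes, was at 6151 in Ctrl, 50440 in IMQ, and 51151 in IMQ+DMD, 8.20-fold higher after IMQ. HIF1A, the hypoxia factor, NFKB1, a subunit of NF-kB, and KLF4, a factor of monocyte differentiation, had log2 differences of 1.67, 1.54, and -2.03. The regulators' median was 0.31 after IMQ, where that of the S100 members was -0.39, and it turned to -0.10 without normalization between arrays and to -0.19 with spike-in scaling. Without normalization 4 regulators were at least 2-fold higher and 3 lower, and after spike-in scaling 3 were higher and 3 lower, with CEBPB at 2.70 and 2.61. Of all genes, 1.82% were higher and 16.1% lower by 2-fold without normalization, and 1.6% and 20.2% after spike-in scaling. Between IMQ+DMD and IMQ, 0 of the 15 reached 2-fold, where 1.16% of all genes were higher and 1.22% lower by that much, and CEBPB differed by 0.02.

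Of the 11 receptors and co-receptors through which extracellular S100 proteins act, all were compared, 8 were lower and 3 higher after IMQ, and 0 reached 2-fold, where 52.6% of all genes were below 0, 3.79% at least 2-fold lower, and 4.24% at least 2-fold higher with the deposited values. Without normalization and after spike-in scaling 11 were lower, 5 of them by 2-fold, where 16.1% and 20.2% of all genes were lower by 2-fold. The median of all genes was then -0.52 and -0.61. The receptors' median log2 difference was -0.57 with the deposited values. TLR4, the receptor of calprotectin, was at a normalized intensity of 2239 in Ctrl, 1172 in IMQ, and 1121 in IMQ+DMD, and AGER, which encodes RAGE, was at 1184, 1528, and 1524. The toll-like receptor was thus lower after IMQ (-0.93), while RAGE differed by 0.37, which turned to -0.02 if the arrays were not normalized and to -0.11 after spike-in scaling. CD14, the co-receptor of TLR4, was at 21875, 13399, and 9436, and was at -1.21 between IMQ+DMD and Ctrl, the 1 receptor gene past 2-fold with the deposited values, by which 5.04% of all genes were lower. Past 2-fold were 2 receptors with 75th percentile scaling, 5 without normalization, and 4 after spike-in scaling, where 4.96%, 10.6%, and 9.33% of all genes were lower.

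Of 13 binding partners inside and outside the cell, 10 were lower after IMQ, where 52.6% of all genes were below 0, with a median of -0.47. Without normalization and after spike-in scaling 12 were lower, with medians of -0.86 and -0.95. The median of all genes was then -0.52 and -0.61. With the deposited values 1 partner was at least 2-fold higher and 1 at least 2-fold lower after IMQ, where 4.24% and 3.79% of all genes were. ANXA6, an annexin that binds several S100 proteins, was at 841 in Ctrl, 415 in IMQ, and 817 in IMQ+DMD. Its log2 difference was -1.02 after IMQ and 0.98 from IMQ to IMQ+DMD. The first fell short of 2-fold with the quantile normalization made here (-0.997) and with normexp (-0.87). The second passed 2-fold after spike-in scaling (1.13), where 7.01% of all genes were at least 2-fold higher. Between IMQ+DMD and Ctrl ANXA6 differed by -0.04, or by -0.49 without normalization and -0.43 after spike-in scaling. PLAT, the tissue plasminogen activator that S100A10 binds, was dim in Ctrl and at 157 in IMQ and 59.6 in IMQ+DMD. It was at least 9.40-fold higher in IMQ than in Ctrl, against the floor of the Ctrl array, and 2.63-fold lower in IMQ+DMD than in IMQ. With normexp background correction its log2 differences were 1.49 in place of 3.23 and -0.82 in place of -1.39. ANXA2, the main partner of S100A10, was at -0.31 after IMQ, and ANXA1, the partner of S100A11, at -0.59.

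Of 18 other alarmins and antimicrobial genes of psoriatic skin, 14 were compared after IMQ, 2 of them at least 2-fold higher and 0 lower, where 4.24% and 3.79% of all genes were. Without normalization 1 was higher and 1 lower, and after spike-in scaling 1 was higher and 2 were lower, where 16.1% and 20.2% of all genes were lower. IL1A, a cytokine alarmin, was at a normalized intensity of 27.5 in Ctrl, 137 in IMQ, and 80.6 in IMQ+DMD, with log2 differences of 2.32 after IMQ and -0.76 from IMQ to IMQ+DMD, which were 1.195 and -0.46 with normexp background correction. IL36G was at 165, 332, and 255, with differences of 1.01 and -0.38, the first of which was 0.53 without normalization. With the deposited values both were thus intermediate in IMQ+DMD. In the step from IMQ to IMQ+DMD they were 2 of 4 genes below 0, while 10 of the 14 compared were above 0, where 49.6% of all genes were below 0. The median of the list was 0.24, against 0.002 over all genes, and PI3, the skin antiprotease elafin, was at 0.83. In that step 0 reached 2-fold, where 1.16% of all genes were higher and 1.22% lower by that much. After spike-in scaling 2 of 15 were at least 2-fold higher, where 7.01% of all genes were. After spike-in scaling the step of IL36G from IMQ to IMQ+DMD was -0.12.

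Markers of other cells that carry S100 proteins were read on the same arrays. Of 5 neutrophil markers on the array, 4 were well above background throughout, CEACAM8 was dim on all, the ELANE probe was the brightest, and the summed normalized intensity was 4868 in Ctrl, 4898 in IMQ, and 5300 in IMQ+DMD. T cell markers summed to 688, 592, and 697, B cell markers, with CD79A the brightest probe, to 4671, 3800, and 4511, and fibroblast markers, of which COL1A2 and COL3A1 were dim, to 55.5, 56.0, and 55.1. Among the neutrophil markers, PRTN3 (0.15) and CSF3R (0.20) were higher in IMQ+DMD than in IMQ, while ELANE (0.08) and MPO (-0.21) were within spot noise. The part of these cells' genes in the S100 values was not tested.

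The genes whose pattern over the 3 arrays came nearest to a member were found by the distance between the pairs of log2 differences (IMQ minus Ctrl, and IMQ+DMD minus IMQ), among 26721 genes that were well above background throughout. For S100A3 they were KIRREL, DCK, and NFAM1, for S100A8 ITGB4, PNPLA4, and MTBP, and for S100A4 lnc-BMP2K-1, ACOT1, and LINC00998. ITGB4 was nearest to S100A8, at -0.57 and -0.36 and a distance of 0.006 log2 units, and KIRREL to S100A3, at -0.87 and -0.34 and a distance of 0.021. With 3 arrays, a pattern has only 2 differences, so that many genes lie close to any member.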

How the data were processed

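RNA of Ctrl, IMQ, and IMQ+DMD THP-1 macrophages was hybridized to 1 array each. The authors deposited the scanner output (Feature Extraction 10.5.1.1) with background-corrected intensity per spot and quality marks (other values, such as flags), and a table of raw intensity and quantile-normalized intensity per probe; no column of sample values was left unused (0). The depth of an array is not a count, so its precision is limited by 1 array per condition. Columns of the deposited table other than these intensities and the annotation were not used.

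The deposited normalized intensity was converted to log2. A dim value (rated not well above background) was raised to the lowest value that a probe above background had on that array, where it was under it, and a gene was compared where the brighter array was well above background. Of several probes of a gene, the one with the highest mean of log2 values over the arrays stood for it. Genes were read only from the 53870 probes with an Entrez gene ID. A call was a 2-fold difference, with no test. The technical SD came from 300 probes with 10 spots, by brightness in steps of 1 log2 unit. Named genes were all members, in each list around them the genes at 2-fold or more (at most the 4 largest), and the 3 nearest patterns of the 3 members with the largest IMQ difference (the text omits some of them). Other genes named, such as receptors, partners, and chromosome neighbours below 2-fold, were chosen after their values were seen. The members, lists, and comparisons were chosen with earlier results of these data known. The 10 alternatives covered normalization (75th percentile, none, 8 of 10 spike-in probes well above background on all arrays, quantile made here with limma 3.58.1, and normexp with an offset of 50), dim probes, the probe that stands for a gene, and a 1.5-fold threshold. R 4.3.3, Python 3.11.15, numpy 2.4.6, pandas 2.3.3, and matplotlib 3.10.9 were used. Only the floor, the log2 differences, and the 2-fold call were run on simulated arrays, whose planted differences were past 2-fold. Probe positions are hg19, and RefSeq windows GRCh38.p14.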

Additional observations from a re-analysis of the deposited data

How the results depend on the processing

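No paired analysis was possible because every label carries replicate number 1 and each condition has 1 array. No replicate was left out for the same reason. For the 10 members in 3 comparisons, 138 of 150 values under the 5 alternatives that rescale the arrays or correct the background kept their direction. Of the 150, 75 stayed within the technical SD, 71 were counted as moved beyond it, and 4, all of S100A11, as reversed. The largest move was 0.68. The other 5 alternatives cannot move a member with 1 bright probe. Of 150 list medians, 131 kept their direction, and the largest move was 0.77.

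The members' median for IMQ against Ctrl (-0.39) was -0.81 without normalization between arrays and -0.90 with spike-in scaling. Between IMQ+DMD and Ctrl (-0.39) it was -0.74, -0.68, and, with the mean of all probes, -0.47. For IMQ+DMD against IMQ (-0.09) it was -0.19 with 75th percentile scaling and 0.024 with spike-in scaling, which turned its sign. The members called lower for IMQ against Ctrl (0) numbered 1 without normalization, 2 with spike-in scaling, and 1 at 1.5-fold. Of all genes, 16.1%, 20.2%, and 11.1% were lower in these settings. For IMQ+DMD against Ctrl (1) the members called lower numbered 2 with 75th percentile scaling, 4 without normalization, 3 with spike-in scaling, and 4 at 1.5-fold. The shares of all genes called lower were 4.96%, 10.6%, 9.33%, and 11.9%. For IMQ+DMD against IMQ, 1 member was called higher with spike-in scaling and 1 at 1.5-fold (0 otherwise), where 7.01% and 6.59% of all genes were. The genes called in the surrounding lists after IMQ (14) numbered 10 with normexp, 21 without normalization, 22 with spike-in scaling and 23 at 1.5-fold.

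S100A11 turned to -0.043 and -0.13 for IMQ against Ctrl and to -0.11 and -0.055 for IMQ+DMD against Ctrl, without normalization and with spike-in scaling. The regulators' median turned to -0.10 and -0.19 for IMQ against Ctrl and to -0.28 and -0.22 for IMQ+DMD against Ctrl under the same settings. With no floor or filter on dim probes, the median of the other S100 genes after IMQ turned to 0.0012. S100A7, S100P, and the second probe of S100A12 have the widest technical SD. The cause of these shifts was not tested.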
